A study of Mus musculus with 2 samples.

Results

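Among the macrophages and monocytes of mouse kidney tumours, 161 cells carried messenger RNA of both Nos2, the inducible nitric oxide synthase, and Inhba, the activin A subunit, together with that of Csf1r, the colony-stimulating factor 1 receptor of the monocyte-macrophage lineage. They were chosen by their measured UMI counts, as barcodes with at least 3000 UMIs (unique molecules), at most 20% mitochondrial UMIs, at least 1 UMI of Csf1r, at least 2 of Nos2, at least 1 of Inhba, and at most 3 UMIs of the proliferation genes Mki67 and Top2a together. They are called the Nos2 Inhba cells here (members, in the figures). They were 161 of the 19451 barcodes of the series and were compared with the 11360 other barcodes of at least 3000 UMIs and at least 1 Csf1r UMI, called the other Csf1r cells. The choice used measured values of these same cells, so that their profile against the other Csf1r cells is a description with no test.

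The cells came from tumours of RENCA, a kidney cancer line of the BALB/c mouse, grafted into the kidneys of BALB/c mice. The genotype label of the first library is SMYD3 knockdown, after the protein methyltransferase SMYD3, and that of the second is WT, for tumours that the series text calls controls, and the libraries are named by these labels here. The knockdown concerned the RENCA cells, so the Nos2 Inhba cells, as host cells, were not its target. White blood cells were sorted by CD45 according to the series text, whereas the sample records give an epithelial cell type. The number and age of the mice, the knockdown construct and any pooling of tumours are not given in the sources used here. With 1 library per label there was no replicate and no test, and every interval below is at 95% and covers counting error only. The intervals are exact, except the Newcombe interval of the difference of shares. The SMYD3 knockdown library held 85 Nos2 Inhba cells with 1450243 UMIs (median 14982 per cell) and the WT library held 76 with 1056854 UMIs (median 13873.5). The other Csf1r cells were somewhat shallower, with medians of 13142.5 UMIs over 5594 cells in the SMYD3 knockdown library and 12387.5 over 5766 of the WT library. The libraries shared 22 barcode sequences, of which 0 belonged to Nos2 Inhba cells.

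Cells short of oxygen stabilise the hypoxia-inducible factors HIF-1 and HIF-2, because the prolyl hydroxylases that mark them for destruction need oxygen. Stabilised HIF binds a short core motif near its target genes, which encode glucose transporters, glycolytic enzymes, lipid droplet and mitophagy proteins, and vascular endothelial growth factor. Macrophages gather in poorly perfused tumour regions, and both nitric oxide synthase and arginase draw on the same substrate, arginine.

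The name hypoxic monocyte-macrophages was set beside marker genes, as a description. Of 10 lineage markers, Lyz2, Adgre1 and Ms4a6c were at least 2-fold lower than in the other Csf1r cells and 0 were higher, with medians of -0.52 (knockdown) and -0.33 (WT) log2 units, where the scale is log2 of CPM plus 5. Each marker was present, with Cd68 (a lysosomal glycoprotein) at 503 CPM in the SMYD3 knockdown library and 436 CPM in the WT library, and Cd14 (the endotoxin co-receptor) at 1116 (knockdown) and 1233 (WT) CPM, where CPM is a gene's UMIs per 1000000 summed UMIs of the cells. The levels of the lysozyme gene Lyz2 were 6503 (knockdown) and 4705 (WT) CPM in Nos2 Inhba cells, against 13839 (knockdown) and 12828 (WT) CPM in the other Csf1r cells. Adgre1, for the macrophage marker F4/80, was found in 40% (knockdown) and 40.8% (WT) of Nos2 Inhba cells, against 70.4% of the other Csf1r cells of each library. The neutrophil gene Ly6g and the dendritic cell genes Flt3, Xcr1 and Cd209a had 0 UMIs in the Nos2 Inhba cells of each library, and the summed natural killer, mast cell and erythroid markers were also at 0 CPM. The list of type 1 dendritic cell markers summed to 221 (knockdown) and 293 (WT) CPM in Nos2 Inhba cells, against 228 (knockdown) and 241 (WT) CPM in the other Csf1r cells, mostly from Irf8. Its measured genes, Irf8 and Cadm1, were higher in both libraries after scaling by the median ratio over genes, which left 2 of the lineage markers lower and 1 higher. The type 2 list summed to 375 (knockdown) and 428 (WT) CPM in Nos2 Inhba cells, against 641 (knockdown) and 727 (WT) CPM in the other Csf1r cells, in Nos2 Inhba cells mostly from Sirpa, which macrophages also express. T cell markers summed to 8.27 (knockdown) and 2.84 (WT) CPM, and B cell markers to 0.690 (knockdown) and 0 (WT) CPM. The neutrophil list summed to 693 (knockdown) and 719 (WT) CPM, against 377 (knockdown) and 249 (WT) CPM in the other Csf1r cells, mostly from the collagenase gene Mmp8 and the calprotectin gene S100a8. The part of neutrophil RNA in these levels was not tested. Without cells that held a UMI of Csf3r or Cxcr2, the receptors that mark neutrophils, the counts of genes given below stayed within 1.5 times. Those counts run over all genes and do not show the source of the Mmp8 and S100a8 RNA. Ly6c2, which marks classical monocytes, was near 0, at 4.14 (knockdown) and 2.84 (WT) CPM (6 (knockdown) and 3 (WT) UMIs).

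The 4 hypoxia marker genes that the choice of cells did not use were listed with earlier results of these data known. Their levels are therefore a description and no independent check of the name. All 4 were several-fold higher in Nos2 Inhba cells in both libraries. The prolyl hydroxylase gene Egln3, a HIF target that feeds back on HIF, stood at 212 (knockdown) and 236 (WT) CPM in Nos2 Inhba cells, against 28.2 (knockdown) and 25.1 (WT) CPM in the other Csf1r cells, ratios of 7.52 (6.66 to 8.48) in the knockdown library and 9.37 (8.18 to 10.7) in the WT library. Vegfa, the main vessel growth factor, stood at 150 (knockdown) and 162 (WT) CPM in Nos2 Inhba cells, against 19.4 (knockdown) and 26.5 (WT) CPM in the other Csf1r cells, ratios of 7.72 (6.67 to 8.91) in the knockdown library and 6.11 (5.2 to 7.14) in the WT library. Hilpda, which blocks lipid droplet breakdown, stood at 1740 (knockdown) and 2099 (WT) CPM in Nos2 Inhba cells, against 256 (knockdown) and 247 (WT) CPM in other Csf1r cells, ratios of 6.81 (6.53 to 7.1) in the knockdown library and 8.50 (8.13 to 8.88) in the WT library. Ndrg1, a stress gene induced by hypoxia, stood at 1514 (knockdown) and 1780 (WT) CPM in Nos2 Inhba cells, against 238 (knockdown) and 263 (WT) CPM in other Csf1r cells, ratios of 6.36 (6.08 to 6.65) in the knockdown library and 6.78 (6.46 to 7.11) in the WT library. For each of the 4 genes, the lower of the Nos2 Inhba levels lay above the higher of the other levels. The genes of the rule itself stood at 345 (knockdown) and 474 (WT) CPM (Nos2) and at 503 (knockdown) and 826 (WT) CPM (Inhba) in Nos2 Inhba cells, which their choice fixed.

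**Figure D1:**
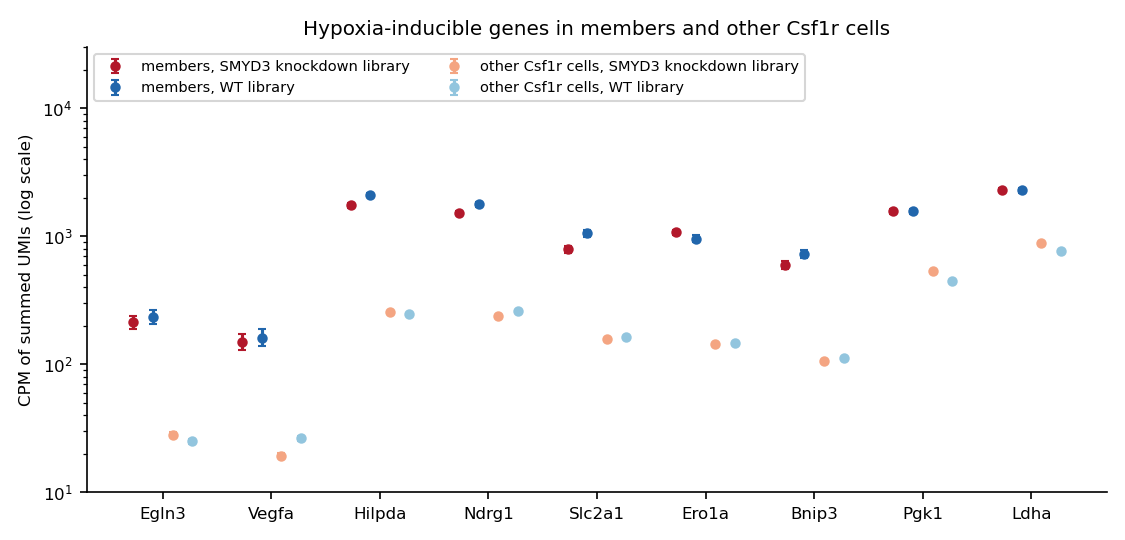
Levels of 9 hypoxia-inducible genes (CPM of summed UMIs, log scale) in Nos2 Inhba cells and the other Csf1r cells of each library, with exact 95% Poisson intervals. For each gene both points of the Nos2 Inhba cells lie above both points of the other Csf1r cells, for example Egln3 at 212 (knockdown) and 236 (WT) CPM in Nos2 Inhba cells, against 28.2 (knockdown) and 25.1 (WT) CPM in the other Csf1r cells.

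The core motif that HIF recognises is shown in the promoters of 3 HIF targets, as examples of what that list shares in sequence, and in that of Inhba, because Inhba defines the cells. Each window runs from 250 bases before to 50 bases after the annotated start, from RefSeq on GRCm38.p6, 5′ to 3′ on the gene's strand, with capitals for ACGTG or GCGTG and their reverse-strand forms CACGT and CACGC, which can overlap. The windows are chr12:54203825-54204124 on the minus strand for Egln3, chr6:29272376-29272675 on the plus strand for Hilpda (the window of the downstream of its annotated starts), chr7:138909457-138909756 on the minus strand for Bnip3, which encodes a mitophagy receptor, and chr13:16011601-16011900 on the plus strand for Inhba.
Egln3: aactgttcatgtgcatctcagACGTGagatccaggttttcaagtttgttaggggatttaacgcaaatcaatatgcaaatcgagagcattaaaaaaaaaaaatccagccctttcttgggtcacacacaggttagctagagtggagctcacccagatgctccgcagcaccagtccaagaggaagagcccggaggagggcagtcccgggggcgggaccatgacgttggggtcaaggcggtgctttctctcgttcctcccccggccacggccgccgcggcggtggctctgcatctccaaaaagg
Hilpda: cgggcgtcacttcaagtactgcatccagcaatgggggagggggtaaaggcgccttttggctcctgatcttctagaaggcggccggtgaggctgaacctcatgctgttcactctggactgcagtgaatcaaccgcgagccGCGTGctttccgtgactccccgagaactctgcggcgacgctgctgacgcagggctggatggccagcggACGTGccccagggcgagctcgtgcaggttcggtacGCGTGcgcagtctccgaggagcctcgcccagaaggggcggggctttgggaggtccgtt
Bnip3: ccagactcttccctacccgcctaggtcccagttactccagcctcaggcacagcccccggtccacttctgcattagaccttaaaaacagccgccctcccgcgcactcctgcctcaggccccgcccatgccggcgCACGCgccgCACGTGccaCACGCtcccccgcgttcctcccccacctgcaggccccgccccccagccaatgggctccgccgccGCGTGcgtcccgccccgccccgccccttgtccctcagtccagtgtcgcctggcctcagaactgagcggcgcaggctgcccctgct
Inhba: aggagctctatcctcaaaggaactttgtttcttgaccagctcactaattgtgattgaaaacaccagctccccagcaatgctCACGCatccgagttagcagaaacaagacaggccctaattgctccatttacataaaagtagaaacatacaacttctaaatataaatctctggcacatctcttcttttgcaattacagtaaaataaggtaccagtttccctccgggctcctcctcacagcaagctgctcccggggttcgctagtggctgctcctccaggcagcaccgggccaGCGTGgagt
The core motif occurred 1 time in the Egln3 window, 3 times in the printed window of Hilpda, 5 times in that of Bnip3 and 2 times in that of Inhba. The window of the upstream start of Hilpda, not printed, held it 1 time. Of the 2 windows of Vegfa, that at the upstream end of the gene (chr17:46032328-46032627) held it 0 times. The other, at a start inside the gene (chr17:46025114-46025413), held it 2 times. It was present in 32 of 38 promoter windows of the HIF target list (84.2%, 27 genes) and in 26 of 33 of the glycolysis list (78.8%, 21 genes). Over all genes it was present in 14380 of 32851 windows of the same length (43.8%, 27025 genes). A gene with several annotated starts counts once per start, and such windows can overlap and hold the same sites. The sets of windows were not matched for base composition. A match of these letters is a description of the window, not a bound site. Nos2, at chr11:78920787-78960254 on the plus strand, and Ndrg1 had no entry among the promoter sequences.

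Across 7539 genes measured in both libraries (at least 20 UMIs and 10 CPM in the higher group), 247 (3.28%) were at least 2-fold higher in Nos2 Inhba cells in each library, and 516 (6.84%) at least 2-fold lower, on a log2 scale of CPM plus 5. The median gene lay below 0, at -0.27 in the SMYD3 knockdown library and -0.32 in the WT library. Scaling by the median ratio turned the split round, to 397 higher and 306 lower, so that levels near the median gene carry no direction of their own. Of the HIF target list, 29 of 32 genes were measured, and 21 were at least 2-fold higher and 0 lower, with median differences of 1.63 (knockdown) and 1.91 (WT) log2 units. Ero1a, an oxidative protein folding enzyme of the endoplasmic reticulum, stood at 1071 (knockdown) and 957 (WT) CPM in Nos2 Inhba cells, against 144 (knockdown) and 147 (WT) CPM in the other Csf1r cells. Of its UMIs in the SMYD3 knockdown library, 22.0% came from 1 Nos2 Inhba cell. Bnip3 stood at 595 (knockdown) and 722 (WT) CPM in Nos2 Inhba cells, against 107 (knockdown) and 112 (WT) CPM in the other Csf1r cells. Ankrd37, an ankyrin repeat gene induced by hypoxia, stood at 323 (knockdown) and 458 (WT) CPM in Nos2 Inhba cells, against 82.3 (knockdown) and 78.6 (WT) CPM in other Csf1r cells. Mif, a cytokine that holds back macrophage migration, stood at 1340 (knockdown) and 1190 (WT) CPM in Nos2 Inhba cells, against 437 (knockdown) and 314 (WT) CPM in other Csf1r cells. The measured HIF targets that did not pass 2-fold in both libraries included P4ha1, Kdm3a, Narf, Pfkfb4, Ier3, Pam and Bhlhe40. Among those named, Pfkfb4, a regulator of glycolytic flux, had the lowest ratios, 0.582 (0.309 to 0.999) in the knockdown library and 0.650 (0.324 to 1.17) in the WT library, on 13 (knockdown) and 11 (WT) UMIs.

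Glycolysis genes were higher throughout the measured list: 14 of 18 passed 2-fold in both libraries and 0 were 2-fold lower, with medians of 1.31 (knockdown) and 1.46 (WT) log2 units. The glucose transporter gene Slc2a1 stood at 791 (knockdown) and 1050 (WT) CPM in Nos2 Inhba cells, against 157 (knockdown) and 164 (WT) CPM in the other Csf1r cells. Hk1, whose hexokinase takes the first step of glycolysis, stood at 152 (knockdown) and 171 (WT) CPM in Nos2 Inhba cells, against 31.3 (knockdown) and 34.8 (WT) CPM in other Csf1r cells. Pgk1, for phosphoglycerate kinase, stood at 1560 (knockdown) and 1565 (WT) CPM in Nos2 Inhba cells, against 534 (knockdown) and 447 (WT) CPM in other Csf1r cells. The same held for Ldha, which makes lactate, at 2292 (knockdown) and 2281 (WT) CPM in Nos2 Inhba cells, against 880 (knockdown) and 765 (WT) CPM in the other Csf1r cells. Slc16a3, which exports lactate, stood at 267 (knockdown) and 236 (WT) CPM in Nos2 Inhba cells, against 91.8 (knockdown) and 80.6 (WT) CPM in other Csf1r cells. Pdk1, which keeps pyruvate from the mitochondria, stood at 57.2 (knockdown) and 68.1 (WT) CPM in Nos2 Inhba cells, against 26.0 (knockdown) and 23.1 (WT) CPM in other Csf1r cells.

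The HIF subunit genes themselves did not pass 2-fold in both libraries. Of 7 measured genes of the oxygen-sensing list, Egln3 and Egln1, both HIF targets, were 2-fold higher, and 3 genes were after median-ratio scaling. Hif1a, for the HIF-1 alpha subunit that is controlled mainly at the protein level, stood at 196 (knockdown) and 208 (WT) CPM in Nos2 Inhba cells, against 217 (knockdown) and 243 (WT) CPM in the other Csf1r cells, ratios of 0.901 (0.798 to 1.01) in the knockdown library and 0.857 (0.747 to 0.979) in the WT library. Epas1, for HIF-2 alpha, was low, at 14.5 (knockdown) and 23.7 (WT) CPM in Nos2 Inhba cells, against 9.35 (knockdown) and 10.5 (WT) CPM in other Csf1r cells. Egln2, a prolyl hydroxylase that hypoxia does not induce, had ratios of 0.537 (0.350 to 0.788) in the knockdown library and 0.525 (0.315 to 0.821) in the WT library.

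Genes of mitochondrial respiration lay on the low side, but not beyond the median gene in every case. All 18 measured nuclear genes of oxidative phosphorylation were lower in both libraries (medians -0.56 (knockdown) and -0.45 (WT)) and 0 passed 2-fold, and after scaling by the median ratio 10 stayed lower and 6 were higher in both. Of 11 measured genes of the mitochondrial genome, 11 were lower as deposited and 8 after scaling, when 1 was higher in both libraries. The median mitochondrial share of UMIs was 0.747% (knockdown) and 0.873% (WT) in Nos2 Inhba cells, against 1.2% (knockdown) and 1.3% (WT) in the other Csf1r cells.

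Beside Nos2, the arginase genes and the arginine transporter gene were higher in the same cells. Arg1, which splits arginine to urea and ornithine, stood at 2712 (knockdown) and 2896 (WT) CPM in Nos2 Inhba cells, against 814 (knockdown) and 529 (WT) CPM in the other Csf1r cells, ratios of 3.33 (3.22 to 3.44) in the knockdown library and 5.47 (5.27 to 5.68) in the WT library. Arg2, the mitochondrial arginase, stood at 365 (knockdown) and 418 (WT) CPM in Nos2 Inhba cells, against 110 (knockdown) and 113 (WT) CPM in other Csf1r cells. Slc7a2, the cationic amino acid transporter that brings arginine into macrophages, stood at 348 (knockdown) and 504 (WT) CPM in Nos2 Inhba cells, against 58.4 (knockdown) and 67.3 (WT) CPM in other Csf1r cells. At least 1 Arg1 UMI was present in 74 of 85 (87.1%, knockdown) and 63 of 76 (82.9%, WT) Nos2 Inhba cells, against 53.6% (knockdown) and 42.8% (WT) of the other Csf1r cells. With every cell thinned to 3000 UMIs the shares were 83.5% (knockdown) and 73.7% (WT), against 34.8% (knockdown) and 27.1% (WT) of other Csf1r cells. In cells with T cell receptor UMIs and no Csf1r, which should lack Arg1, they were 26.7% (knockdown) and 28.6% (WT) at median depths of 3668 (knockdown) and 4173.5 (WT) UMIs, and 22.2% (knockdown) and 17.9% (WT) after thinning. Of the 16 measured genes of the arginine and nitric oxide list, 3 were 2-fold higher (Arg1, Arg2 and Slc7a2) beside Nos2, whose level the choice of cells fixed, and 1 was lower: Pts, an enzyme that makes the synthase's cofactor tetrahydrobiopterin, at 20.0 (knockdown) and 19.9 (WT) CPM in Nos2 Inhba cells, against 46.0 (knockdown) and 47.4 (WT) CPM in other Csf1r cells. After median-ratio scaling, 6 were higher, Nos2 among them, and 0 lower. The list, Nos2 included, summed to 5225 (knockdown) and 5865 (WT) CPM, near the 5081 (knockdown) and 5105 (WT) CPM of Nos2 cells without Inhba. In the other Csf1r cells it summed to 2165 (knockdown) and 1882 (WT) CPM. The first enzyme of that cofactor pathway, Gch1, stood at 170 (knockdown) and 190 (WT) CPM in Nos2 Inhba cells, against 89.8 (knockdown) and 81.3 (WT) CPM in other Csf1r cells. Odc1, which turns ornithine to polyamine, stood at 117 (knockdown) and 92.7 (WT) CPM in Nos2 Inhba cells, against 106 (knockdown) and 96.3 (WT) CPM in other Csf1r cells.

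For activin, Inhba was the subunit present. The subunit genes Inhbb and Inha had 0 UMIs in Nos2 Inhba cells, so that the RNA for activin A and not for activin B or inhibin was detected. Each 0 allows up to 2.07 CPM in the SMYD3 knockdown library and 2.84 CPM in the WT library. Of 13 measured genes of the activin and TGF-beta list, 1 passed 2-fold beside Inhba, whose level the choice of cells fixed. It was Smad7, the inhibitory Smad induced by the pathway. Smad7 stood at 111 (knockdown) and 178 (WT) CPM in Nos2 Inhba cells, against 51.5 (knockdown) and 44.0 (WT) CPM in the other Csf1r cells. Fst, for the activin-binding protein follistatin, stood at 14.5 (knockdown) and 17.0 (WT) CPM in Nos2 Inhba cells, against 5.00 (knockdown) and 7.54 (WT) CPM in other Csf1r cells. The receptor gene Tgfbr2 stood at 74.5 (knockdown) and 65.3 (WT) CPM in Nos2 Inhba cells, against 150 (knockdown) and 152 (WT) CPM in other Csf1r cells. Acvr1b, an activin receptor gene, stood at 9.65 (knockdown) and 12.3 (WT) CPM in Nos2 Inhba cells, against 10.5 (knockdown) and 12.4 (WT) CPM in other Csf1r cells.

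**Figure D2:**
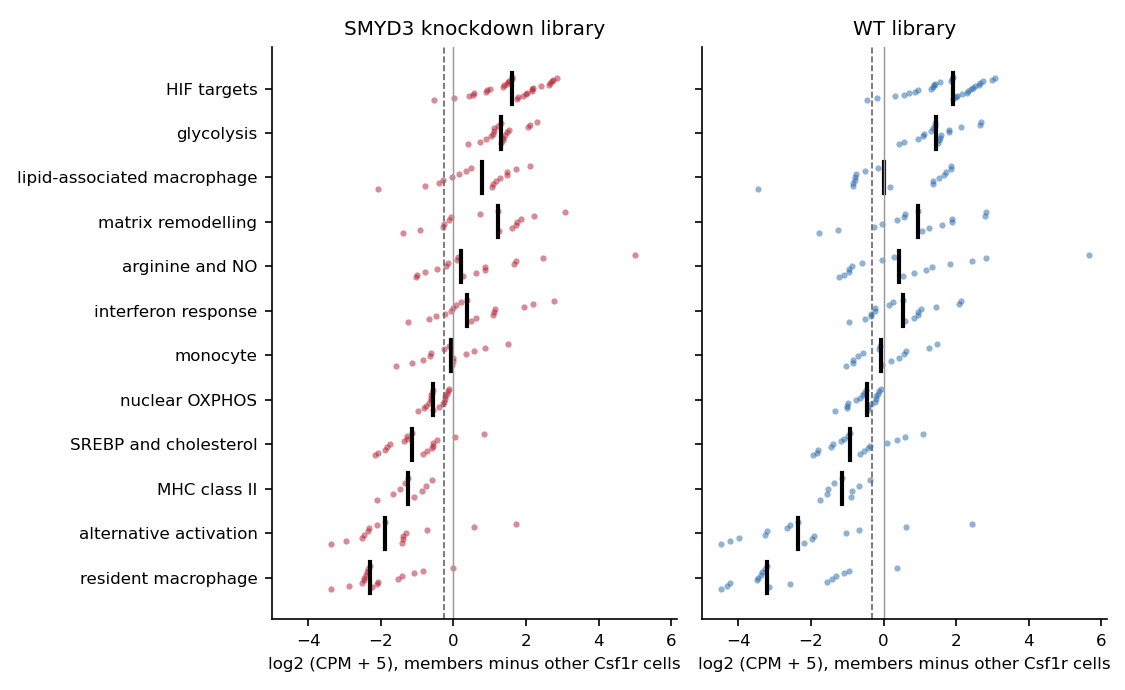
Difference of log2 (CPM + 5) between Nos2 Inhba cells and the other Csf1r cells for each measured gene of 12 lists, in each library, with a black bar at the list's median and a dashed line at the median of all measured genes. HIF targets (medians 1.63 for knockdown and 1.91 for WT) and glycolysis genes lie to the right, and resident macrophage genes (medians -2.31 for knockdown and -3.21 for WT) to the left.

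The 12 measured angiogenic genes held 5 that were 2-fold higher, with placental growth factor Pgf at 51.0 (knockdown) and 64.3 (WT) CPM in Nos2 Inhba cells, against 11.4 (knockdown) and 8.41 (WT) CPM in other Csf1r cells. The vasodilator peptide gene Adm stood at 113 (knockdown) and 106 (WT) CPM in Nos2 Inhba cells, against 21.2 (knockdown) and 19.7 (WT) CPM in other Csf1r cells. Thbs1, an inhibitor of vessel growth, was also higher, at 623 (knockdown) and 1187 (WT) CPM in Nos2 Inhba cells, against 202 (knockdown) and 167 (WT) CPM in other Csf1r cells. The other 2 of the 5 were Vegfa and Anxa2, and Nrp1 and Ang were 2-fold lower. Of 15 measured matrix genes, 7 were higher and 1 lower (Timp2, an inhibitor of metalloproteinases). The macrophage elastase gene Mmp12 stood at 5968 (knockdown) and 5584 (WT) CPM in Nos2 Inhba cells, against 708 (knockdown) and 782 (WT) CPM in other Csf1r cells, ratios of 8.43 (8.24 to 8.62) in the knockdown library and 7.14 (6.95 to 7.33) in the WT library. Mmp8 stood at 423 (knockdown) and 287 (WT) CPM in Nos2 Inhba cells, against 85.8 (knockdown) and 74.5 (WT) CPM in other Csf1r cells. It is also on the neutrophil list, and the part of neutrophil RNA in its level was not tested. The collagenase gene Mmp13 stood at 309 (knockdown) and 227 (WT) CPM in Nos2 Inhba cells, against 82.0 (knockdown) and 71.5 (WT) CPM in other Csf1r cells.

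Among genes of lipid-loaded macrophages, 7 of 16 were 2-fold higher and 1 lower. Summed, the list stood at 27571 (knockdown) and 23985 (WT) CPM, against 23604 (knockdown) and 23508 (WT) CPM in the other Csf1r cells. It stood at 27848 (knockdown) and 26539 (WT) CPM in Arg1 Spp1 cells outside the rule, a group chosen on Spp1 of this list. Nos2 cells without Inhba had 21475 (knockdown) and 27549 (WT) CPM, and Inhba cells with at most 1 Nos2 UMI 20386 (knockdown) and 17904 (WT) CPM. The sum was thus not particular to the Nos2 Inhba cells. Spp1, for osteopontin, stood at 8363 (knockdown) and 7112 (WT) CPM in Nos2 Inhba cells, against 3449 (knockdown) and 2453 (WT) CPM in the other Csf1r cells. Fabp5, a fatty acid carrier, stood at 1130 (knockdown) and 1735 (WT) CPM in Nos2 Inhba cells, against 536 (knockdown) and 538 (WT) CPM in other Csf1r cells. Plin2, a lipid droplet coat protein, stood at 1983 (knockdown) and 1555 (WT) CPM in Nos2 Inhba cells, against 706 (knockdown) and 602 (WT) CPM in other Csf1r cells. The lower gene was Apoe, the cholesterol carrier, at 2326 (knockdown) and 982 (WT) CPM in Nos2 Inhba cells, against 9839 (knockdown) and 10800 (WT) CPM in other Csf1r cells. At least 2 UMIs each of Arg1 and Spp1 were held by 67 of 85 Nos2 Inhba cells (78.8%, 68.6 to 86.9) in the knockdown library and by 60 of 76 (78.9%, 68.1 to 87.5) in the WT library, against 33.5% (knockdown) and 25.8% (WT) of the other Csf1r cells. Most Nos2 Inhba cells lay within the Arg1 Spp1 cells, of which they were a small minority beside 1875 (knockdown) and 1487 (WT) cells outside the rule.

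Further genes were among those with the largest differences. Tnfrsf9, the co-stimulatory receptor 4-1BB, stood at 298 (knockdown) and 313 (WT) CPM in Nos2 Inhba cells, against 20.6 (knockdown) and 23.9 (WT) CPM in other Csf1r cells, and was found in 61.2% (knockdown) and 50% (WT) of Nos2 Inhba cells, against 7.13% (knockdown) and 8.20% (WT) of the other Csf1r cells. Il7r, the interleukin 7 receptor subunit best known from T cells, stood at 330 (knockdown) and 472 (WT) CPM in Nos2 Inhba cells, against 29.1 (knockdown) and 36.0 (WT) CPM in other Csf1r cells, in 83.5% (knockdown) and 86.8% (WT) of the cells, against 12.0% (knockdown) and 13.6% (WT) of other Csf1r cells. These levels stood beside T cell markers at 8.27 (knockdown) and 2.84 (WT) CPM in the same cells. Npy, for neuropeptide Y, stood at 73.1 (knockdown) and 94.6 (WT) CPM in Nos2 Inhba cells, against 3.20 (knockdown) and 6.77 (WT) CPM in other Csf1r cells, in 22.4% (knockdown) and 15.8% (WT) of the cells, against 1.70% (knockdown) and 2.22% (WT) of other Csf1r cells. Rgcc, a cell cycle regulator, stood at 484 (knockdown) and 656 (WT) CPM in Nos2 Inhba cells, against 79.1 (knockdown) and 77.3 (WT) CPM in other Csf1r cells. The transcription factor gene Ets1 stood at 80.7 (knockdown) and 112 (WT) CPM in Nos2 Inhba cells, against 12.5 (knockdown) and 12.4 (WT) CPM in other Csf1r cells. The neutrophil-attracting chemokine gene Cxcl3 stood at 754 (knockdown) and 1037 (WT) CPM in Nos2 Inhba cells, against 134 (knockdown) and 72.0 (WT) CPM in other Csf1r cells, but in 61.2% (knockdown) and 56.6% (WT) of the cells, so that its level came from part of them. It was the only 1 of 17 measured chemokine genes that was 2-fold higher, and Ccl8, Ccl12, Ccl17, Ccl24 and Cxcl16 were 2-fold lower. Fosl1, an AP-1 subunit, stood at 33.1 (knockdown) and 27.4 (WT) CPM in Nos2 Inhba cells, against 4.46 (knockdown) and 3.61 (WT) CPM in other Csf1r cells, and was 1 of 2 transcription factor genes of 22 that were 2-fold higher, the other being Nfil3.

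Genes of resident and alternatively activated macrophages were lower. Of 17 measured resident macrophage genes, 15 were at least 2-fold lower and 0 higher, and 13 were 2-fold lower after median-ratio scaling. Summed, the list stood at 6722 (knockdown) and 4619 (WT) CPM, against 24664 (knockdown) and 25224 (WT) CPM in the other Csf1r cells. It was also low in Inhba cells with at most 1 Nos2 UMI, at 7572 (knockdown) and 7664 (WT) CPM. Nos2 cells without Inhba had 10346 (knockdown) and 10344 (WT) CPM. C1qa, for a chain of complement C1q, stood at 762 (knockdown) and 375 (WT) CPM in Nos2 Inhba cells, against 4016 (knockdown) and 3845 (WT) CPM in the other Csf1r cells, ratios of 0.190 (0.179 to 0.201) in the knockdown library and 0.0974 (0.0881 to 0.108) in the WT library. Cd163, the haemoglobin scavenger receptor, stood at 11.0 (knockdown) and 3.78 (WT) CPM in Nos2 Inhba cells (16 (knockdown) and 4 (WT) UMIs), against 161 (knockdown) and 193 (WT) CPM in other Csf1r cells. Pf4, a platelet chemokine, did not pass 2-fold, at 1761 (knockdown) and 2083 (WT) CPM in Nos2 Inhba cells, against 1785 (knockdown) and 1612 (WT) CPM in other Csf1r cells. Of 15 measured alternative activation genes, 12 were lower and 1, Arg1, higher. The mannose receptor gene Mrc1 stood at 297 (knockdown) and 262 (WT) CPM in Nos2 Inhba cells, against 1545 (knockdown) and 1587 (WT) CPM in other Csf1r cells. The lectin gene Clec10a stood at 28.3 (knockdown) and 17.0 (WT) CPM in Nos2 Inhba cells, against 255 (knockdown) and 343 (WT) CPM in other Csf1r cells. The chemokine genes Ccl8, at 119 (knockdown) and 143 (WT) CPM in Nos2 Inhba cells, against 1388 (knockdown) and 1747 (WT) CPM in other Csf1r cells, and Ccl17, with 2 UMIs in each library, were also among the lowest. Rab3il1, Tmem176b and Ms4a7 were lower too, with 8 to 23 UMIs, 6 to 10 UMIs and 11 to 23 UMIs in a library.

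Monocyte genes were close to the other Csf1r cells, with medians of -0.07 (knockdown) and -0.06 (WT) log2 units over 14 measured genes and only F10, for coagulation factor X, 2-fold higher. Vcan, a matrix proteoglycan of monocytes, stood at 379 (knockdown) and 359 (WT) CPM in Nos2 Inhba cells, against 387 (knockdown) and 389 (WT) CPM in other Csf1r cells. The chemokine receptor gene Ccr2 stood at 125 (knockdown) and 157 (WT) CPM in Nos2 Inhba cells, against 283 (knockdown) and 286 (WT) CPM in other Csf1r cells. All 9 measured genes of MHC class II antigen presentation were lower and 5 passed 2-fold, 3 of them still after median-ratio scaling. H2-Eb1 stood at 129 (knockdown) and 185 (WT) CPM in Nos2 Inhba cells, against 574 (knockdown) and 633 (WT) CPM in other Csf1r cells. The proliferation genes Pclaf, Cdk1 and Birc5 were lower, and 14 of 16 cell cycle genes passed 2-fold, which the limit on Mki67 and Top2a partly set: against other Csf1r cells held to the same limit, Cdk1 differed by -0.96 and Birc5 by -0.67 in the library where the difference was smaller.

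Inflammatory genes showed no common direction. Of 12 measured cytokine and mediator genes, 2 were 2-fold higher, Ptgs2 (cyclooxygenase 2) and Il1rn (the interleukin 1 receptor antagonist), and 1, Il18, was 2-fold lower. Ptgs2 stood at 208 (knockdown) and 393 (WT) CPM in Nos2 Inhba cells, against 59.6 (knockdown) and 69.8 (WT) CPM in other Csf1r cells. Il1rn stood at 386 (knockdown) and 375 (WT) CPM in Nos2 Inhba cells, against 123 (knockdown) and 117 (WT) CPM in other Csf1r cells. Tnf stood at 32.4 (knockdown) and 26.5 (WT) CPM in Nos2 Inhba cells, against 54.0 (knockdown) and 47.9 (WT) CPM in other Csf1r cells. Il1b stood at 295 (knockdown) and 554 (WT) CPM in Nos2 Inhba cells, against 562 (knockdown) and 618 (WT) CPM in other Csf1r cells. Neither CPM level of Tnf or Il1b was above that of the other Csf1r cells. After median-ratio scaling, 4 genes of this list were 2-fold higher and 0 lower. Of 16 NF-kB feedback genes, 0 were 2-fold higher and 1 (Icam1) was lower. The checkpoint ligand gene Cd274 (PD-L1) stood at 129 (knockdown) and 173 (WT) CPM in Nos2 Inhba cells, against 38.3 (knockdown) and 40.1 (WT) CPM in other Csf1r cells, ratios of 3.36 (2.89 to 3.90) in the knockdown library and 4.31 (3.70 to 5.01) in the WT library. The 17 measured interferon genes held 3 that were 2-fold higher, Rsad2 (viperin, an antiviral enzyme), Ifit1 and Ifit2. Rsad2 was found in 23.5% (knockdown) and 11.8% (WT) of Nos2 Inhba cells, Ifit1 in 10.6% (knockdown) and 11.8% (WT), and Ifit2 in 8.24% (knockdown) and 7.89% (WT). The list summed per cell lay lower, with medians of 357 (knockdown) and 232 (WT) CPM in Nos2 Inhba cells, against 518 (knockdown) and 481 (WT) CPM in the other Csf1r cells.

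Iron and oxidative stress genes split. Of 15 measured genes, 5 were higher and 2 lower. Hmox1, which breaks down haem, stood at 3866 (knockdown) and 2006 (WT) CPM in Nos2 Inhba cells, against 1128 (knockdown) and 948 (WT) CPM in other Csf1r cells. The ferritin gene Fth1 stood at 43212 (knockdown) and 37827 (WT) CPM in Nos2 Inhba cells, against 14799 (knockdown) and 12977 (WT) CPM in other Csf1r cells. The iron exporter gene Slc40a1 stood at 8.96 (knockdown) and 2.84 (WT) CPM in Nos2 Inhba cells, against 27.6 (knockdown) and 28.5 (WT) CPM in other Csf1r cells. The transferrin receptor gene Tfrc stood at 5.52 (knockdown) and 10.4 (WT) CPM in Nos2 Inhba cells, against 30.8 (knockdown) and 35.4 (WT) CPM in other Csf1r cells. Of 17 measured SREBP targets and cholesterol synthesis genes, 0 were 2-fold higher and 7 lower, and 5 were lower after median-ratio scaling. Hmgcs1, an early enzyme of cholesterol synthesis, stood at 25.5 (knockdown) and 36.9 (WT) CPM in Nos2 Inhba cells, against 108 (knockdown) and 88.7 (WT) CPM in other Csf1r cells. The 19 genes of the dissociation stress list gave 0 at 2-fold in either direction.

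The Nos2 Inhba cells varied among themselves in the genes followed per cell, but a HIF target sum above the other Csf1r cells' median was common to them. Summed over the HIF target list, the median cell stood at 13004.9 CPM (lowest 3765 and highest 35099 CPM) in the SMYD3 knockdown library and at 13618.5 CPM (3572 to 34770 CPM) in the WT library. The medians of the other Csf1r cells were 2701 (knockdown) and 2558 (WT) CPM, and each of the 85 (knockdown) and 76 (WT) Nos2 Inhba cells lay above its library's. This was not particular to HIF targets. The glycolysis sum lay above the other Csf1r cells' median in 100% of Nos2 Inhba cells of each library. The sum of NRF2, iron and oxidative stress genes did so in 97.6% (knockdown) and 97.4% (WT). At least 3 of Egln3, Vegfa, Hilpda and Ndrg1 were detected in 98.8% (knockdown) and 96.1% (WT) of Nos2 Inhba cells, against 17.5% (knockdown) and 17.3% (WT) of the other Csf1r cells. With every cell thinned to 3000 UMIs the shares were 62.4% (knockdown) and 52.6% (WT), against 7.08% (knockdown) and 6.66% (WT) of other Csf1r cells, and in cells with T cell receptor UMIs 2.22% (knockdown) and 3.57% (WT). Across Nos2 Inhba cells the summed HIF target and glycolysis levels had a Spearman correlation of 0.54 (knockdown, n = 85) and 0.52 (WT, n = 76). The points share a library and each cell's depth, so these are descriptions.

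**Figure D3:**
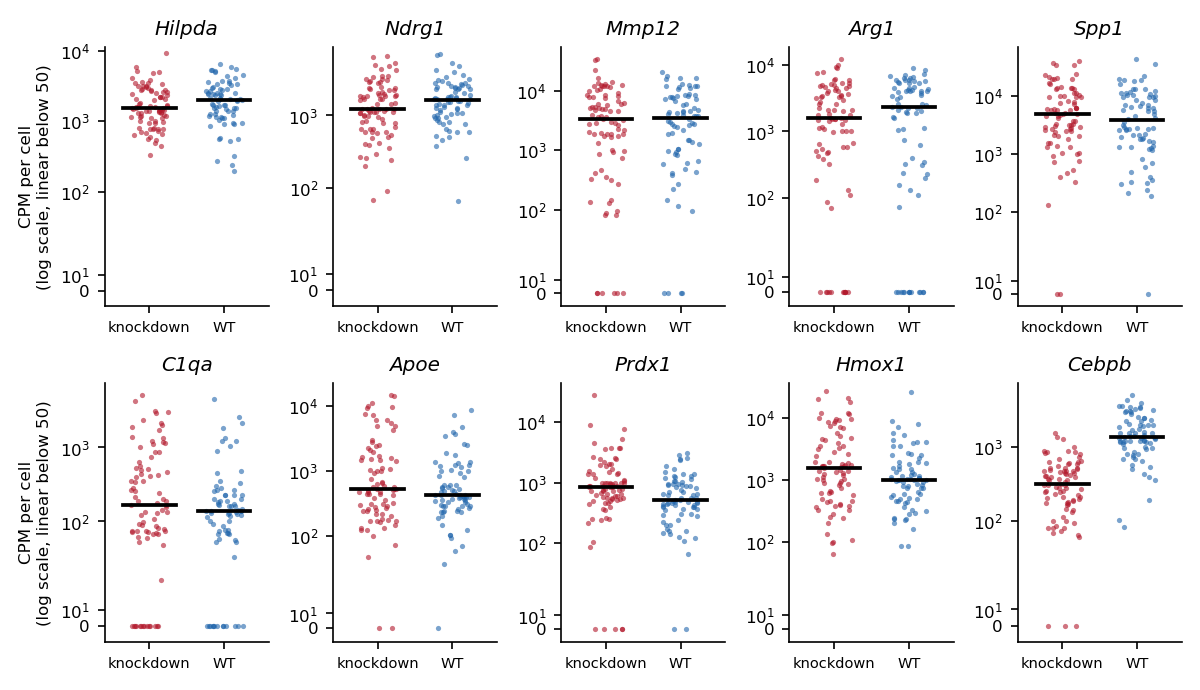
Level of 10 genes in each Nos2 Inhba cell (CPM per cell, log scale, linear below 50), with a point per cell and a bar at the median of each library, knockdown left and WT right. Hilpda and Ndrg1 were above 0 in every cell, while Arg1, Mmp12 and C1qa reached 0 in some cells, and the Cebpb medians were 316 CPM in the SMYD3 knockdown library and 1381 CPM in the WT library.

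Per cell, Hilpda had a median of 1545 CPM (lowest 329 CPM) in the SMYD3 knockdown library and 1990 CPM (lowest 198 CPM) in the WT library. Mmp12 had medians of 3381 (knockdown) and 3582 (WT) CPM and was 0 in some cells of each library. The resident macrophage list was above the other Csf1r cells' median in only 2 cells of each library.

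Clustering of all Csf1r cells without library correction gave 21 clusters, and 143 of the 161 Nos2 Inhba cells (88.8%) fell in 2 of them. A cluster of 991 cells led by Il7r, Nos2, Mmp12, Gpnmb, Atp6v0d2 and Ndrg1 held 118 (61 knockdown and 57 WT), and a cluster of 861 cells led by Upp1, Egln3, Inhba, F2rl2, Car4 and Ass1 held 25 (14 knockdown and 11 WT). A further 7 lay in a cluster led by the interferon genes Rsad2, Ifit2 and Cmpk2, and 6 in a cluster led by Chil3 and Car4. Nos2 Inhba cells were 11.9% of the first cluster. The same genes shaped the clusters, so the following values only describe them. In the first cluster Nos2 Inhba cells had Pf4 at 2028 (knockdown) and 2091 (WT) CPM, against 77.3 (knockdown) and 250 (WT) CPM in those of the second. Fabp5 stood at 1456 (knockdown) and 2084 (WT) CPM in the first, against 129 (knockdown) and 186 (WT) CPM in the second. Il1b stood at 171 (knockdown) and 250 (WT) CPM in the first, against 794 (knockdown) and 2030 (WT) CPM in the second. H2-Aa, an MHC class II chain, stood at 282 (knockdown) and 492 (WT) CPM in the first, against 1510 (knockdown) and 1535 (WT) CPM in the second. Ccr2 stood at 62.6 (knockdown) and 113 (WT) CPM in the first, against 489 (knockdown) and 373 (WT) CPM in the second. Fn1, for fibronectin, stood at 1145 (knockdown) and 1412 (WT) CPM in the first, against 3772 (knockdown) and 3468 (WT) CPM in the second. The hypoxia genes were high in each, with Hilpda at 1877 (knockdown) and 2110 (WT) CPM in the first cluster, against 1731 (knockdown) and 2781 (WT) CPM in the second.

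Cells at the edges of the rule were few, and their levels differed between the libraries. The Nos2 Inhba cells with exactly 2 Nos2 UMIs (24 knockdown and 18 WT cells) had Egln3 at 181 (knockdown) and 171 (WT) CPM. The cells with Inhba and 1 Nos2 UMI (47 in each library) had it at 225 (knockdown) and 135 (WT) CPM. Hilpda stood at 1781 (knockdown) and 1875 (WT) CPM just inside this edge, against 1861 (knockdown) and 1384 (WT) CPM just outside. The Nos2 Inhba cells with exactly 1 Inhba UMI (17 knockdown and 12 WT cells) had Egln3 at 180 (knockdown) and 325 (WT) CPM. The cells with at least 2 Nos2 UMIs and no Inhba UMI (52 knockdown and 36 WT cells) had it at 226 (knockdown) and 98.3 (WT) CPM. At both edges Egln3 was lower inside than outside in the knockdown library and higher inside in the WT library. C1qa stood at 567 (knockdown) and 711 (WT) CPM just inside the Inhba edge, against 1426 (knockdown) and 1536 (WT) CPM just outside. Hilpda was graded over the wider groups. Hilpda stood at 1740 (knockdown) and 2099 (WT) CPM in Nos2 Inhba cells. It stood at 1422 (knockdown) and 1269 (WT) CPM in Nos2 cells without Inhba, at 763 (knockdown) and 615 (WT) CPM in Inhba cells with at most 1 Nos2 UMI, at 367 (knockdown) and 509 (WT) CPM in Arg1 Spp1 cells outside the rule, and at 155 (knockdown) and 150 (WT) CPM in Csf1r cells with neither gene. The summed HIF target list kept no such order at the top. It stood at 12774 (knockdown) and 13776 (WT) CPM in Nos2 Inhba cells, against 13576 (knockdown) and 12006 (WT) CPM in Nos2 cells without Inhba. The median UMI counts of these groups ranged from 12007.5 to 15555, and the part of depth in this order was not tested. Nos2 cells without Inhba numbered 61 (knockdown) and 41 (WT) here, against 52 (knockdown) and 36 (WT) at the edge. Hilpda stood at 1497 (knockdown) and 1490 (WT) CPM in those at the edge. In the wider WT group, 1 cell held 103128 of 708706 UMIs, and the tumour epithelial list summed to 1068 CPM.

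**Figure D4:**
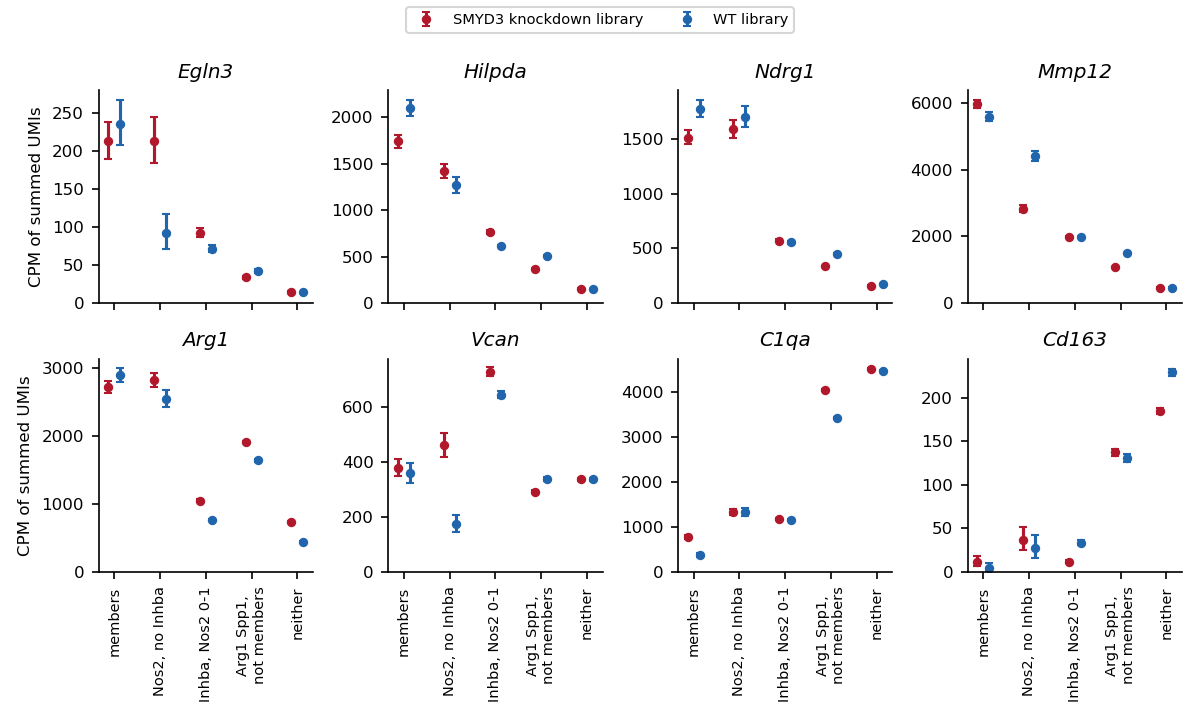
Levels of 8 genes (CPM of summed UMIs, linear axes, exact 95% Poisson intervals) in Nos2 Inhba cells and 4 groups of other Csf1r cells, by library. Egln3, Hilpda, Ndrg1 and Mmp12 were high in the cells with Nos2 and low in the cells with neither gene, and C1qa and Cd163 ran the other way; the group of Arg1 Spp1 cells can share cells with the neighbouring groups.

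Between the libraries, the first question was whether the share of Nos2 Inhba cells differed. They were 85 of 5679 Csf1r cells (1.5%, 1.20 to 1.85) in the SMYD3 knockdown library and 76 of 5842 (1.30%, 1.03 to 1.63) in the WT library. The difference was 0.196 percentage points (-0.246 to 0.641), an interval that reaches to both sides of no difference and covers counting error only. With 1 library per label, a difference of shares between the labels could not be tested.

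Of the genes of the study's title, Smyd3 was sparse in the Nos2 Inhba cells, Srebf1 was at least 1.5-fold lower in the SMYD3 knockdown library on few UMIs, and Cd47 and Sirpa were within 1.5-fold. Smyd3 had 8 UMIs (5.52 CPM) in the SMYD3 knockdown library and 14 (13.2 CPM) in the WT library, a ratio of 0.416 (0.151 to 1.06), against 1.11 (1.01 to 1.23) in the other Csf1r cells. It lay below the minimum for measured genes. Srebf1, for the lipid synthesis regulator SREBP1, had 20 (knockdown) and 29 (WT) UMIs (13.8 (knockdown) and 27.4 (WT) CPM), a ratio of 0.503 (0.269 to 0.920), against 1.13 in the other Csf1r cells. Cd47, the anti-phagocytic signal, stood at 386 (knockdown) and 418 (WT) CPM, a ratio of 0.923 (0.814 to 1.05), and Sirpa, its receptor on myeloid cells, at 346 (knockdown) and 409 (WT) CPM, a ratio of 0.847 (0.743 to 0.965).

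Within the Nos2 Inhba cells, 429 of 6327 measured genes (6.78%) were at least 1.5-fold higher in the SMYD3 knockdown library and 413 (6.53%) at least 1.5-fold lower, around a median of 0.02 log2 units. The ratio's counting interval left out 1 for 303 of the higher and 343 of the lower genes. It takes UMIs as independent, while the UMIs of some genes came mostly from 1 cell, so these are not counts of tested differences. In the other Csf1r cells, with 79747406 (knockdown) and 78023447 (WT) UMIs, 25 of 7962 measured genes were higher and 56 lower by the same fold. Of the genes past the fold in Nos2 Inhba cells, 12 higher and 34 lower ones also passed it in the same direction in the other Csf1r cells. The sums of the Nos2 Inhba cells were far smaller, and small sums pass a fold more readily by counting noise alone. The counts of the 2 cell groups are therefore not comparable, and they describe 2 libraries without replicates.

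Of 28 measured HIF targets, 1 was 1.5-fold higher and 2 lower in the SMYD3 knockdown library, shares near those of all genes. Counted without that fold, 20 of the 28 lay lower and 8 higher, with a median of -0.19 log2 units, against -0.05 in the other Csf1r cells. Hilpda had a ratio of 0.829 (0.783 to 0.878), against 1.04 in the other Csf1r cells, and Ndrg1 a ratio of 0.85 (0.80 to 0.91), against 0.907. The glycolysis median was -0.03. Of the resident macrophage list, 7 of 16 measured genes were 1.5-fold higher in the SMYD3 knockdown library and 1 lower (median 0.42, against 0.03 in the other Csf1r cells). Per cell, the list's sum had close medians, 2232 (knockdown) and 1941 (WT) CPM, while the upper quartiles were 7041 (knockdown) and 2991 (WT) CPM. The difference thus lay mostly in part of the cells. Removal of the highest doublet scores, which took 8 knockdown and 1 WT cells, was not repeated for this list. C1qa stood at 762 CPM in the SMYD3 knockdown library and 375 CPM in the WT library, a ratio of 2.03 (1.81 to 2.29), against 1.04 in the other Csf1r cells. Apoe stood at 2326 (knockdown) and 982 (WT) CPM, a ratio of 2.37 (2.21 to 2.54), against 0.911 in the other Csf1r cells. The median cells were closer, with C1qa at 169 (knockdown) and 139 (WT) CPM and Apoe at 532 (knockdown) and 423 (WT) CPM, and the ratios of the sums without the highest cell of each library were 2.29 for C1qa and 2.44 for Apoe. Fcgrt, the neonatal Fc receptor, stood at 96.5 (knockdown) and 23.7 (WT) CPM, a ratio of 4.08 (2.65 to 6.52), against 0.939 in the other Csf1r cells. The monocyte-attracting chemokine gene Ccl12 stood at 803 (knockdown) and 248 (WT) CPM, a ratio of 3.24 (2.83 to 3.72), against 1.44 in the other Csf1r cells. Cd36, a fatty acid receptor, stood at 57.2 (knockdown) and 16.1 (WT) CPM, a ratio of 3.56 (2.09 to 6.40), against 0.713 in the other Csf1r cells.

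Of 13 measured NRF2, iron and oxidative stress genes, 5 were 1.5-fold higher in the SMYD3 knockdown library and 1 was lower (median 0.45, against -0.01 in the other Csf1r cells). The higher ones were Hmox1, Prdx1, Gclm, Gclc and Txnrd1, and the lower one Mt2, a metallothionein gene. Prdx1, a peroxidase that clears hydrogen peroxide, stood at 1991 (knockdown) and 812 (WT) CPM, a ratio of 2.45 (2.27 to 2.65), against 1.20 in the other Csf1r cells. Without the highest cell of each library, which held 19.5% of its UMIs in the SMYD3 knockdown library, the ratio was 2.11. Gclm, a subunit of the enzyme that starts glutathione synthesis, stood at 135 (knockdown) and 49.2 (WT) CPM, a ratio of 2.75 (2.01 to 3.80), against 1.01 in the other Csf1r cells, and 2.34 without the highest cells. Hmox1 stood at 3866 (knockdown) and 2006 (WT) CPM, a ratio of 1.93 (1.83 to 2.03), against 1.19 in the other Csf1r cells. Its median cell stood at 1552 CPM in the SMYD3 knockdown library and 1002 CPM in the WT library.

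**Figure D5:**
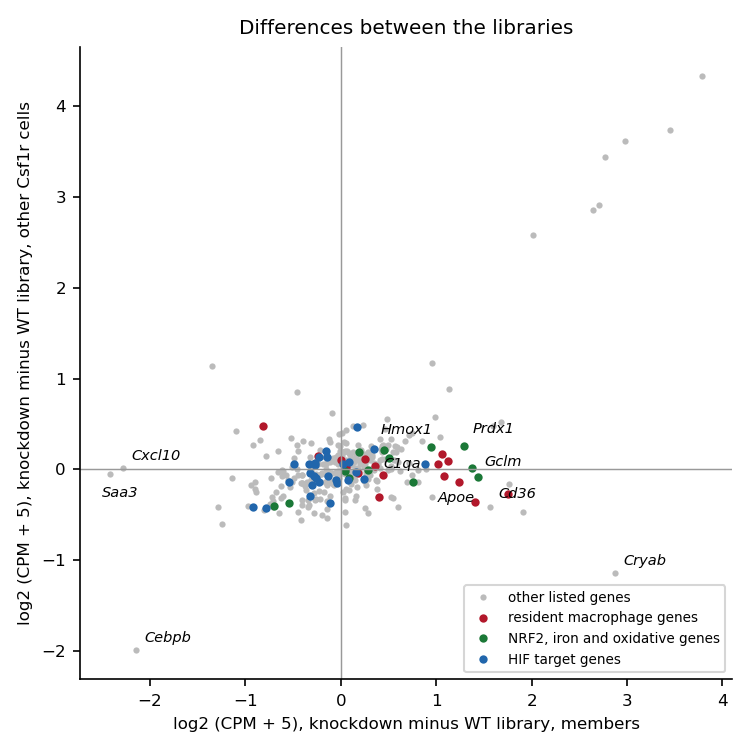
Difference of log2 (CPM + 5) between the SMYD3 knockdown library and the WT library, in Nos2 Inhba cells (horizontal axis) and in the other Csf1r cells (vertical axis), for listed genes. These had at least 20 UMIs and 10 CPM in the Nos2 Inhba cells of the higher library. Apoe, C1qa, Gclm and Prdx1 lie to the right near the horizontal zero line, and Cebpb lies low on both axes, with ratios of 0.223 in Nos2 Inhba cells and 0.248 in the other Csf1r cells.

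Among the genes that were lower in the SMYD3 knockdown library, Cebpb, for the myeloid transcription factor C/EBP beta, stood at 343 CPM against 1535 CPM in the WT library, a ratio of 0.223 (0.202 to 0.247). The ratio was 0.248 in the other Csf1r cells and 0.267 over all barcodes, so the difference was one of the libraries as a whole. Saa3, an acute phase protein, stood at 228 (knockdown) and 1241 (WT) CPM, a ratio of 0.184 (0.162 to 0.208), against 0.966 in the other Csf1r cells, with 46.2% (knockdown) and 24.5% (WT) of its UMIs in the highest cell of each library. Prdm1, for the repressor Blimp-1, stood at 15.2 (knockdown) and 64.3 (WT) CPM, a ratio of 0.236 (0.139 to 0.386), against 0.732 in the other Csf1r cells. Ccnd1, for cyclin D1, lay on the higher side instead, at 102 (knockdown) and 36.0 (WT) CPM, a ratio of 2.84 (1.98 to 4.17), against 1.17 in the other Csf1r cells. The NF-kB feedback list had 0 genes higher and 6 of 15 lower by 1.5-fold (median -0.41, against -0.17 in the other Csf1r cells). Its lower members were Tnfaip3, Tnfaip2, Nfkb2, Rel, Traf1 and Bcl3. Among the cytokines, Il1b stood at 295 (knockdown) and 554 (WT) CPM and Ptgs2 at 208 (knockdown) and 393 (WT) CPM in Nos2 Inhba cells, ratios of 0.533 (0.470 to 0.605) and 0.530 (0.456 to 0.617).

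For several of the largest differences between the libraries, 1 cell held much of a gene's UMIs. Without the highest cells, some of these differences shrank or turned and others stayed. Acta2, for smooth muscle actin, had 89.6% of its WT UMIs in 1 cell, and its ratio of 0.0870 became 0.724 without the highest cells. Cxcl10, an interferon-induced chemokine, had 91.8% in 1 WT cell, and its ratio of 0.186 became 1.38. Cryab, a crystallin that marks tumour cells here, had 97.6% in 1 cell of the SMYD3 knockdown library, which clustered with the Cryab and Krt8 cells, and its ratio of 11.5 became 0.551. Ppbp had 114 UMIs in the SMYD3 knockdown library, of which 57 came from 1 cell, and 4 in the WT library, all from 1 cell. Without these cells its ratio still had a lower limit of 10.9. Cited1 had 78.8% (knockdown) and 74.0% (WT) of its UMIs in the highest cell of each library, and its ratio of 0.231 became 0.190 (0.0698 to 0.447) without them. Ctrb1, a pancreatic digestive enzyme gene, had 93 UMIs in the SMYD3 knockdown library and 0 in the WT library, and stood at 96.0 (knockdown) and 0.0128 (WT) CPM in the other Csf1r cells. The pancreatic list summed to 301 (knockdown) and 1.89 (WT) CPM in Nos2 Inhba cells, against 460 (knockdown) and 22.6 (WT) CPM in the other Csf1r cells, and the tumour epithelial list to 161 (knockdown) and 48.3 (WT) CPM. The part of this foreign RNA in the other differences was not tested. Mucl1 (1 (knockdown) and 66 (WT) UMIs), Cstdc4 (7 (knockdown) and 82 (WT) UMIs), Lyz1 (67 (knockdown) and 177 (WT) UMIs) and Ppp1r12c (21 (knockdown) and 66 (WT) UMIs) were the remaining genes with the largest lower values. Mucl1 had 71.2% of its WT UMIs in 1 cell. Counts of Cstdc4 and Lyz1 are uncertain because close copies can share their reads.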

How the data were processed

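Droplet single-cell RNA-seq was deposited by the authors as a matrix of whole UMI counts per gene and barcode for both libraries, with a table that names each barcode's library. Per the submitters' processing notes it was made with Cell Ranger 7.1.0 on mm10. The annotation release and any depth equalisation are not given in the sources used here. Gene symbols came from the deposited gene list, and coordinates from GENCODE M21. Barcodes were matched to libraries by sequence, because suffixes and sample numbers run in opposite order.

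UMIs were summed per library and cell group in Python 3.11.15 (numpy 2.4.6, scipy 1.17.1, pandas 2.3.3) and divided by the group's total to give CPM. Ratios use CPM, and differences log2 (CPM + 5). Shares have Clopper-Pearson intervals, sums Poisson, ratios conditional binomial and the difference of shares a Newcombe interval, all at 95%. A 0 allows 3 UMIs. Clusters used scanpy 1.11.5 and leidenalg 0.10.2 (2000 variable genes, 30 components, 15 neighbours, resolution 1). Doublets were kept, and Scrublet removal at 0.8% per 1000 barcodes was an alternative. The calling step was tested on simulated data.

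Genes named by rule were Nos2, Inhba, Egln3, Vegfa, Hilpda, Ndrg1, Smyd3, Srebf1, Cd47 and Sirpa, and, at 50 CPM and 30 UMIs in the higher group, the 15 highest and 10 lowest between cell groups and the 10 highest and 10 lowest between libraries. List members and cells were chosen with earlier results of these data known, and others named were picked from the lists after their values were seen. Alternatives changed depth, thresholds, filters, doublets, scaling and pseudocount.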

Additional observations from a re-analysis of the deposited data

Results flagged for a closer look

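Cells that met every limit except a Csf1r UMI numbered 22 in the SMYD3 knockdown library and 19 in the WT library, and belong to no comparison above. They were shallower, with median UMI counts of 8219.5 (knockdown) and 8169 (WT), and had Hilpda at 2946 (knockdown) and 2342 (WT) CPM, Egln3 at 480 (knockdown) and 368 (WT) CPM and Lyz2 at 2661 (knockdown) and 2825 (WT) CPM. Both hypoxia genes given stood above the Nos2 Inhba cells, which had Hilpda at 1740 (knockdown) and 2099 (WT) CPM and Egln3 at 212 (knockdown) and 236 (WT) CPM. Other hypoxia genes of the cells without Csf1r are not given here.

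For Cryab the difference between the libraries had opposite signs in the cell groups, at 2.87 log2 units in Nos2 Inhba cells and -1.14 in the other Csf1r cells. For Cstdc4 it was -3.07 in Nos2 Inhba cells and 1.01 in the other Csf1r cells. Neither difference of differences was tested, since there was 1 library per label.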

How the results depend on the processing

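The number of measured genes changed with the setting, from 7539 (against the other Csf1r cells) and 6327 (between the libraries) in the main one. The counts below are therefore not comparable without it. With every cell thinned to 3000 UMIs, 151 of 5268 measured genes were 2-fold higher in Nos2 Inhba cells. Between the libraries, 166 were then higher and 209 lower of 2037 measured. The first comparison then had 669 lower genes. The rule applied to thinned counts kept 12 of 3475 (0.345%, knockdown) and 12 of 3773 (0.318%, WT) Csf1r cells, of which 11 in each library were Nos2 Inhba cells as deposited. At least 4 Nos2 UMIs gave shares of 0.828% (knockdown) and 0.822% (WT). Median-ratio scaling gave 397 higher and 306 lower of 7539, with shifts of -0.30 (knockdown) and -0.37 (WT) log2 units. Between the libraries, 1 UMI as the minimum gave 970 higher and 985 lower of 15648, and 100 UMIs with 50 CPM gave 56 higher and 88 lower of 1962. That stricter minimum gave 141 higher and 237 lower of 2893 against the other Csf1r cells. Scrublet removal left 287 higher and 470 lower of 5903 between the libraries. Cryab turned to -0.94 log2 units with that removal (8 knockdown and 1 WT of the Nos2 Inhba cells) and to -0.31 without the highest cell of each library, and Cxcl10 turned to 0.37. The last setting was chosen after seeing the data. The causes were not tested beyond that cell. Gene values were followed over the alternatives only for the hypoxia markers outside the rule and the genes named by rank, which were picked for large differences. Of these values, 423 of 425 against the other Csf1r cells and 275 of 280 between the libraries kept their direction and size class. Settings that changed only the minimum could not move a gene's value. The medians of the HIF target and resident macrophage lists (34 values) and of the NRF2, iron and oxidative stress list (14 values) kept their sign. Their size was not checked. No paired analysis was possible because there was 1 library per label. Depth limits Smyd3 and other genes under 20 UMIs.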
